A study of Homo sapiens with 16 samples.

Results

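Expression of 8 genes of prostaglandin synthesis, reception and inactivation was followed in SUM225 cells exposed to a HER2 kinase inhibitor. The 8 genes were chosen by name, out of 18631 gene symbols on the array, with their courses in these data already known, and every probe carrying 1 of these symbols was used. This gave 9 probes, 1 for each gene and a second for PTGS1. They are PLA2G10 and PLA2G4A (phospholipases A2), PTGS1 and PTGS2 (cyclooxygenases), PTGES (a prostaglandin E2 synthase), PTGER2 and PTGER4 (the receptors EP2 and EP4) and HPGD (which inactivates the product).

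SUM225, written SUM-225 in the labels, is a cell line from a breast cancer with amplified, over expressed HER2. CP724,714 (1 µM), a small molecule that blocks HER2 kinase activity, was added, and parallel cultures gave total RNA every 3 h from 0 h to 45 h. The 16 samples, 1 per time point, were each read on 1 Illumina bead array, so that no time point has a replicate and every SE below comes from the scatter of the arrays around a fitted course. The labels describe medium with serum, insulin and hydrocortisone, while the study's methods describe medium free of insulin and EGF for this line. Beyond the 0 h culture the 16 arrays include no untreated cells, so the inhibitor cannot be told apart from time in culture or from handling when treatment began. The cells are 1 cultured line, without the stroma and immune cells that share prostaglandins with a tumour in tissue.

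Prostaglandin E2 is made in steps. A phospholipase A2 frees arachidonic acid from membrane phospholipid, a cyclooxygenase converts it to prostaglandin H2, and a terminal synthase turns this into prostaglandin E2. The product leaves the cell and acts on the receptors EP1 to EP4, of which EP2 and EP4 raise cyclic AMP, until it is taken up and oxidised by HPGD. In breast cancer the pathway is best known for cyclooxygenase 2, the product of PTGS2, whose expression has been tied to HER2.

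The results turn most on PTGER4, PTGER2, PLA2G10 and PTGES, and the 250 bases before 1 transcript start of each are shown because a promoter is where a shared course might be sought. The start used is the one that the RefSeq promoter table gives, and for PLA2G10 it lies inside the gene's annotated span, while the other 3 stretches end where the gene begins. The sequences are RefSeq's on GRCh38.p14, read 5′ to 3′ on the strand of the gene, and capitals mark a match on either strand to any of 6 short motifs.
PTGER4, chr5:40679665-40679914, plus strand: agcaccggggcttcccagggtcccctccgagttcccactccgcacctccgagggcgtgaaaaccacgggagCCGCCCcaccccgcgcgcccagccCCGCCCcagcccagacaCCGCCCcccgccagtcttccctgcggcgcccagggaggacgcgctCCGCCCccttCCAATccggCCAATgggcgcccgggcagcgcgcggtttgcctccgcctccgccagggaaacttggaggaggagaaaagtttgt
PTGER2, chr14:52314062-52314311, plus strand: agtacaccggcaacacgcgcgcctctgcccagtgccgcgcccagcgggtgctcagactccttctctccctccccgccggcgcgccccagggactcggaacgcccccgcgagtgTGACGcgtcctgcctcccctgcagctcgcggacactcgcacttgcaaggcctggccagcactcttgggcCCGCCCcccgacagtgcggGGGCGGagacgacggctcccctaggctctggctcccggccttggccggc
PLA2G10, chr16:14694309-14694558, minus strand: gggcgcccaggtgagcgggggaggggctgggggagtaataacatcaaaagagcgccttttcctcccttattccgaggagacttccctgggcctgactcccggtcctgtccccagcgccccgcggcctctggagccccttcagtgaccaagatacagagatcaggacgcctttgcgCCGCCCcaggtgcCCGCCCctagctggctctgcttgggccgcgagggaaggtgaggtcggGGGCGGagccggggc
PTGES, chr9:129753043-129753292, minus strand: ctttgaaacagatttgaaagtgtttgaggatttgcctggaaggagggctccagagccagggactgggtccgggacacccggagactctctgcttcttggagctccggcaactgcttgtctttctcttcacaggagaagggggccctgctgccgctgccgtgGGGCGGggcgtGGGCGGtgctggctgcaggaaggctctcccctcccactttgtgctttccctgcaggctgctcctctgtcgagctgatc

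All 4 promoters held the GC box GGGCGG, which 42.6% of 35116 promoters of this length hold. PTGER4 held 4 copies, between 179 and 88 bases before the start, and 2 copies of the CCAAT box (32% of promoters). PTGER2 held 2 GC boxes and 1 copy of TGACG, the core of the cyclic AMP response element (21.2% of promoters). PLA2G10 held 3 GC boxes and PTGES held 2. None of the 4 held TATAAA (10.7%), the AP-1 motif TGANTCA (6.57%) or the forkhead motif GTAAACA (2.98%). No 2 of the motifs overlapped in these sequences. The 4 promoters were 72.8%, 74.0%, 68.0% and 61.2% G or C, in the order shown, and the median of all promoters was 58.0%. A match is only a stretch of letters, and binding was not measured.

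The table held 24526 probes, of which 16110 had a detection p-value under 0.05 on at least 3 arrays and were tested. Median signal intensity ran from 242 to 384 between arrays and was highest at 27 h. All 9 probes of the 8 genes were tested, and 4 of them (PLA2G10, PLA2G4A, PTGES and PTGER4) were detected on all 16 arrays. The cells carried the markers of the label. ERBB2, the HER2 gene, was detected on all arrays, as were KRT8, KRT18, KRT19, EPCAM and CDH1. The ERBB2 probe lay between 16.02 and 16.13, at the top of the arrays' range, where a change could not be seen. Of the luminal keratin genes KRT8 fell by 0.68 ± 0.10 (SE) and KRT18 fell by 0.74 ± 0.10 on the log2 scale. No trend was called for KRT19 (0.03 ± 0.04, between 16.06 and 16.13 and so also at the top of the range), EPCAM (-0.37 ± 0.19) or CDH1 (-0.10 ± 0.07). Among basal markers KRT17 changed by -3.20 ± 0.10 and KRT5 by -1.28 ± 0.20, both called as trends and seen on every array, while KRT14 was detected on 3 arrays and TP63 on 0. Of 5 stromal markers VIM, COL3A1 and PDGFRB were detected on 0 arrays, and COL1A1 (-0.45 ± 0.23) and COL1A2 (-0.57 ± 0.28) on 5 each. Among leukocyte and endothelial markers PTPRC was detected on 0 arrays, and CDH5 and CD3E on 1 each. VWF was detected on 13 arrays, and PECAM1, CD68, CD14 and LYZ on 16 each. VWF changed by 2.51 ± 0.28, PECAM1 by -0.56 ± 0.23, CD68 by 0.38 ± 0.14, CD14 by 0.34 ± 0.14 and LYZ by 0.00 ± 0.29. Changes here are linear changes over 45 h, as defined below, and their part in the results was not tested.

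Levels below are background-corrected, quantile-normalized log2 values, comparable between arrays for 1 probe but not between probes. The linear change is the straight-line part of a cubic course, in log2 units over 45 h. A probe counted as changed where its trend had an adjusted p under 0.05 over all tested probes. By this count 5 of the 9 probes had a rising trend (PLA2G10, PLA2G4A, PTGES, HPGD and 1 probe of PTGS1) and 1 a falling trend (PTGER2), while 26.0% of all tested probes rose and 21.7% fell. The same 5 rose and the same 1 fell by at least 1 log2 unit, as did 5.66% and 6.90% of all tested probes. A time-dependent course was called for the same 6 of the 9, against 51.3% of all probes, and not for PTGER4, PTGS2 or the other PTGS1 probe. A departure from a straight line was called for 2 (PTGS1 and PTGER2), against 19.3%. The median linear change of the 9 was 1.21, and that of all tested probes 0.05. Because the genes were chosen with these courses known, the counts describe them and nothing was read from the comparison. Some courses below are described by early arrays lying wholly above or below later ones. The share of all tested probes with such patterns is not given. Bulk RNA cannot tell fewer cells expressing a gene from less RNA of that gene per cell.

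**Figure D1:**
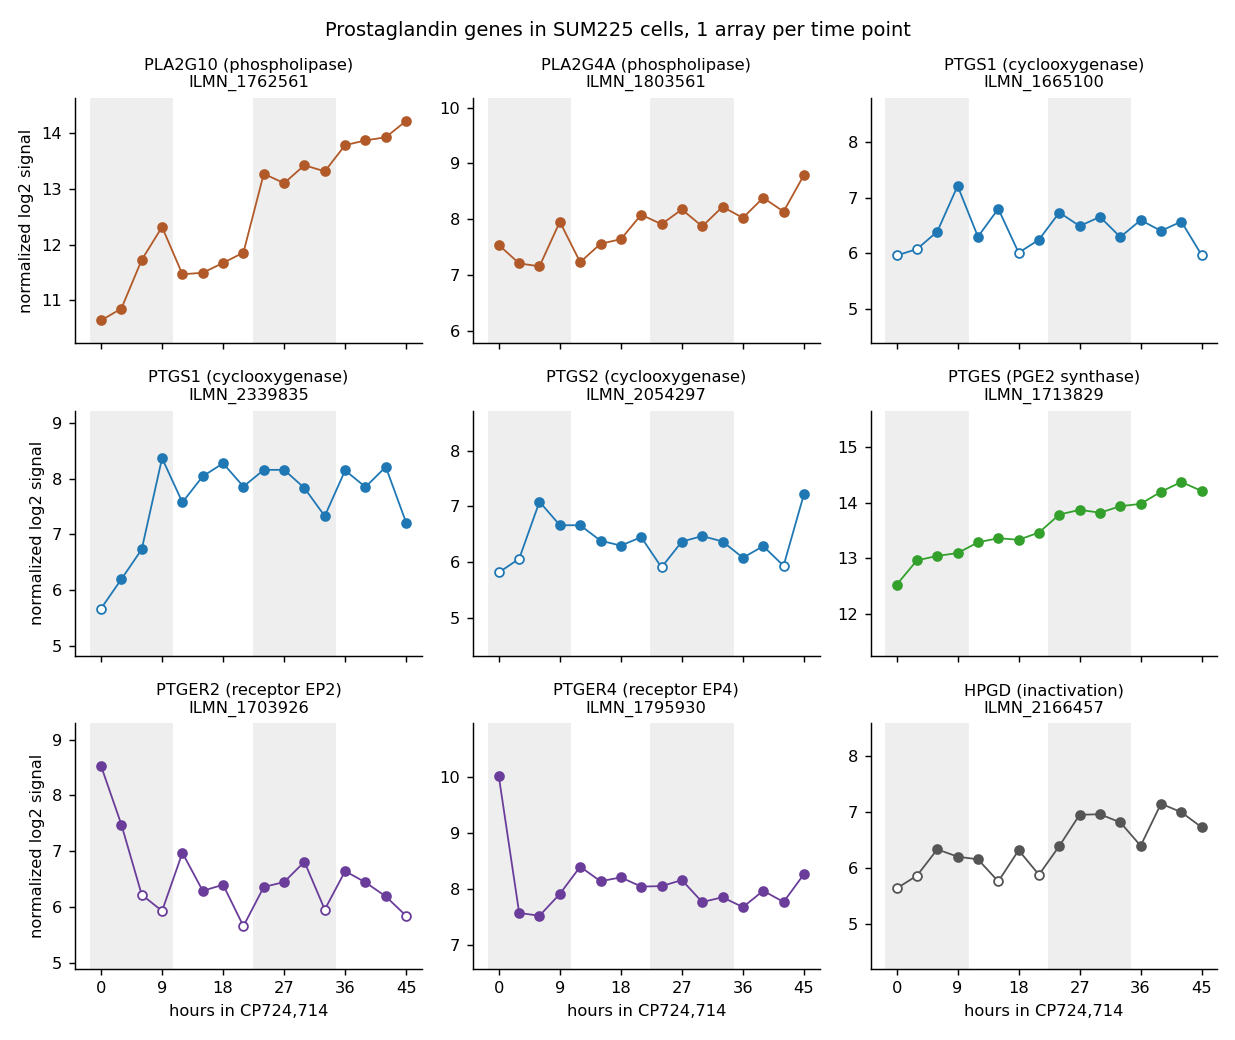
Normalized log2 signal (vertical axis, each panel spanning the same number of log2 units) of the 9 probes against hours in CP724,714, with 1 array per point. Filled points were detected (p under 0.05) and open points were not, and grey and white bands mark sets of 4 consecutive arrays. The panels show PTGES climbing over most of the course and PLA2G10 climbing unevenly, with a drop after 9 h. PTGER4 drops from 10.01 to 7.57 within 3 h.

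PTGER4 encodes EP4, a receptor that couples to Gs. Its value went from 10.01 at 0 h to 7.57 at 3 h, and reached its lowest, 7.52, at 6 h. The 15 later arrays lay between 7.52 and 8.39, with their highest value at 12 h, and 45 h stood at 8.26. The 0 h array was therefore above every later one, and the later arrays formed a plateau spanning less than 1 log2 unit. In the deposited signal the same drop ran from 1134 at 0 h to 299 at 3 h. It amounted to a 5.46-fold lower level at 3 h, which was rank 10 among the falls of all 16110 tested probes, and to 3.38-fold at 45 h. A fall of at least 2-fold at 3 h was seen in 1.05% of tested probes. The straight line hardly caught this course, with a linear change of -0.59 ± 0.37 (SE). The cubic did not catch it either, since neither a time-dependent course nor a departure from a straight line was called for PTGER4. The fall rests on the single 0 h array, and without that array the linear change was 0.11 ± 0.16, with array weights it was -0.21 ± 0.29 and within sets of 4 consecutive arrays -2.55 ± 1.63.

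PTGER2 encodes EP2, the other Gs-coupled receptor of prostaglandin E2. It stood at 8.53 at 0 h and at 7.48 after 3 h, and was no longer detected at 6 h, with a value of 6.22. It was detected on 11 of 16 arrays, and the arrays without detection were those at 6, 9, 21, 33 and 45 h. The lowest value was 5.66 at 21 h, the median over the course was 6.38, and values after 6 h never exceeded 6.97, reached at 12 h. As with PTGER4, the 0 h array was above all later arrays, but here the decline was spread over the first 6 h. The level was 2.07-fold lower at 3 h (rank 141 among falls), at least 4.93-fold lower at 6 h and at least 4.88-fold lower at 45 h, the last pair being bounds set by the lowest detected signal on those arrays. The linear change was -1.14 ± 0.31, and -0.52 ± 0.34 without the 0 h array. It was -0.53 ± 0.13 without background correction and -6.15 ± 1.39 within sets. Pearson r between PTGER2 and PTGER4 over the 16 arrays, which share 1 time axis, was 0.63.

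PLA2G10 encodes a secreted phospholipase A2 with high activity on phosphatidylcholine. It had the largest change of the 8 genes, from 10.64 at 0 h, its lowest value, to 14.22 at 45 h, its highest, with a median of 12.71. This was an 11.9-fold higher level at the end of the course, and a change of at least 2-fold upwards at 45 h was seen in 8.04% of tested probes. The linear change of 3.50 ± 0.29 was number 36 in size among all 16110 probes, and the value was higher than at the preceding time point in 12 of 15 steps. The climb was not even. PLA2G10 reached 12.32 at 9 h, was back at 11.47 at 12 h, stayed between 11.47 and 11.86 to 21 h, then stepped up by 1.41 to 13.27 at 24 h. Means of consecutive sets of 4 arrays were 11.39 ± 0.78 (SD) for 0 to 9 h, 11.62 ± 0.18 for 12 to 21 h, 13.28 ± 0.13 for 24 to 33 h and 13.95 ± 0.19 for 36 to 45 h. No array before 24 h reached 13.10, the lowest value from 24 h on. The step from 21 to 24 h falls between 2 such sets, and 1.83% of tested probes moved by at least 1 log2 unit there. Within sets the slope gave 3.39 ± 0.84, and leaving out any 1 array gave 3.43 to 3.68.

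PLA2G4A encodes the cytosolic phospholipase A2 that calcium brings to membranes and that prefers arachidonate. It was at 7.54 at 0 h, at its lowest of 7.16 at 6 h and at its highest of 8.79 at 45 h, with a median of 7.93. Early and late arrays were close, since 7.96 at 9 h lay above 7.87 at 30 h, and 8 of 15 steps were upwards. Set means went from 7.47 ± 0.37 (SD) for 0 to 9 h to 8.34 ± 0.34 for 36 to 45 h. The level at 45 h was 2.38-fold that at 0 h, and the linear change was 1.21 ± 0.20. That size depended on the background correction, being 0.70 ± 0.11 without any, and was 2.44 ± 0.79 within sets of arrays.

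PTGES encodes the inducible, membrane-bound prostaglandin E synthase that follows the cyclooxygenases. Its course was the smoothest of the 9 probes, with a residual SD of 0.11 around the fit. It was lowest at 0 h (12.53) and stood at 12.96 by 3 h, then 13.29 by 12 h, then 13.78 by 24 h and 13.98 by 36 h. The highest value, 14.37, came at 42 h, just before 14.21 at 45 h. The median was 13.62. Values rose in 12 of 15 steps, the largest being the first (0.44), and the 4 set means were 12.91 ± 0.26 (SD), 13.36 ± 0.07, 13.85 ± 0.07 and 14.19 ± 0.16, each set lying wholly above the one before it. At 45 h PTGES was 3.20-fold its 0 h level. The linear change of 1.61 ± 0.09 was 1.33 ± 0.37 within sets and between 1.5 and 1.68 with any 1 array left out. PTGES and PLA2G10 followed each other closely over the 16 arrays (r = 0.94), as 2 rising courses on 1 time axis do.

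**Figure D2:**
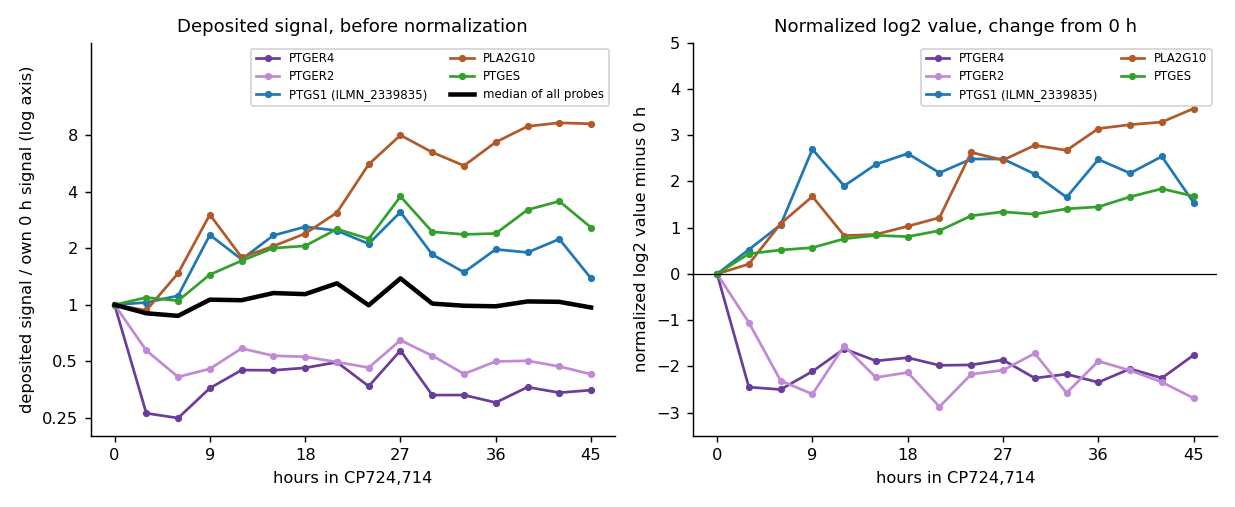
Left, deposited signal of 5 probes divided by the probe's own signal at 0 h (log axis, background included) with the median of all probes in black, and right, normalized log2 value minus that at 0 h, both against hours in CP724,714 with 1 array per point. Both receptors lie below 0 on the right from 3 h on and never return, PTGS1 is high by 9 h, and PLA2G10 passes 3 log2 units after 33 h.

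The cyclooxygenase probes were not detected on some arrays. PTGS1, the constitutive cyclooxygenase, had 2 probes that disagreed. By ILMN_2339835, detected on 15 of 16 arrays, PTGS1 went from 5.67 at 0 h, not detected, through 6.20 at 3 h and 6.73 at 6 h to its highest value of 8.37 at 9 h. From 9 to 42 h it stayed between 7.33 and 8.37, and at 45 h it was 7.21. The 3 earliest arrays lay below all later ones, and the level at 24 h was at least 4.32-fold that at 0 h. The linear change was 1.25 ± 0.29, but 0.69 ± 0.33 without the 0 h array and 1.69 ± 0.28 without the 45 h array, since a line describes a course that levels off at 9 h poorly, and 0.52 ± 0.16 without background correction. By ILMN_1665100, detected on 12 of 16 arrays, PTGS1 ranged from 5.96 at 0 h to 7.21 at 9 h with a median of 6.40, and had a linear change of 0.05 ± 0.27 (0.25 without the 45 h array and -0.13 without the 0 h array). Both probes were lowest at 0 h, where neither was detected, and highest at 9 h, and r between them was 0.62. For ILMN_1665100 the value at 45 h, also not detected, was 5.97 and so hardly above that at 0 h. Which transcripts each probe reads was not examined.

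PTGS2, the inducible cyclooxygenase, was detected on 12 of 16 arrays, with signal between 207 and 322, close to the limit of detection throughout. It was not detected at 0, 3, 24 and 42 h. Its lowest value was 5.82 at 0 h, its median 6.37 and its highest 7.22 at 45 h, with 7.08 at 6 h standing next. Apart from those 2 time points it stayed at or below 6.66, the value at both 9 and 12 h. Against 0 h the level was at least 2.05-fold higher at 6 h and at least 2.25-fold higher at 45 h, each on 1 array. The linear change was 0.08 ± 0.26, and -0.27 without the 45 h array or 0.29 without the 6 h array, so its sign rested on single arrays. Within sets it was 2.77 ± 1.17, the 6 h and 45 h arrays each being the highest of their set.

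HPGD encodes 15-hydroxyprostaglandin dehydrogenase, the first enzyme of prostaglandin E2 inactivation. It was not detected at 0, 3, 15 and 21 h and was detected on all 8 arrays from 24 h on. Its values ran from 5.63 at 0 h to 7.15 at 39 h, with a median of 6.36 and 6.73 at 45 h. Set means were 6.01 ± 0.32 (SD), 6.03 ± 0.26, 6.78 ± 0.27 and 6.82 ± 0.33. The highest value before 24 h was 6.33 at 6 h (signal 214). The lowest from 24 h on was 6.39 at 24 h (signal 238), and both were near the limit of detection. The level at 45 h was at least 1.61-fold that at 0 h, and the linear change was 1.21 ± 0.25. The size of this change depended on the treatment of background, being 0.86 with a larger offset and 0.43 with no correction. HPGD correlated with PLA2G10 over the arrays at r = 0.86.

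The genes with the most similar courses were found by Pearson r over the 16 arrays, among all tested probes, with no test. For PLA2G10 they were TCEA2, a transcription elongation factor (r = 0.98), C20orf22, an older symbol of the lipase gene ABHD12 (0.98), and the chaperone gene CRYAB (0.98). For PTGES they were RRAGD, which encodes a Rag GTPase (0.98), P8 (0.97) and the autophagy gene TP53INP2 (0.97). For PLA2G4A they were ARFGEF1 (0.92), TPARL (0.92) and THRSP (0.92), and for HPGD they were CMTM7 (0.92), RAB11A (0.91) and CLDND1 (0.91). PTGER2 was most like CYR61, an immediate early gene now named CCN1 (0.93), AGR2 (0.92) and APEX2 (0.92). PTGER4 was most like DDA1 (0.91), JMJD4 (0.88) and NXT1 (0.88). PTGS1 was most like ERCC5 (0.94), SERINC1 (0.93) and REEP5 (0.92), and PTGS2 like PSMB4 (0.87), ERG (0.83) and CRIPT (0.83). The 16 points share 1 time axis and 1 set of arrays.

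**Figure D3:**
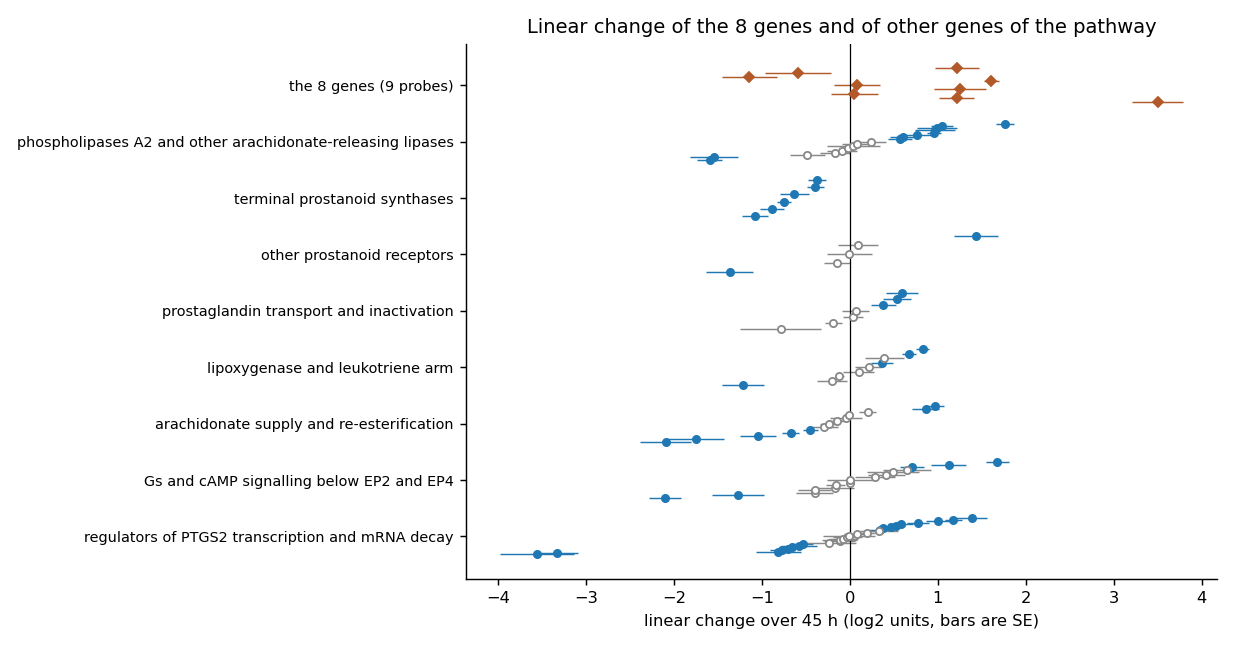
Linear change over 45 h (log2 units, bars are SE) of the 9 probes of the 8 genes (diamonds) and of 98 other genes of the pathway, 1 probe per gene, in 8 lists. Blue points passed the test of the trend and open points did not, and all 6 tested genes listed as terminal prostanoid synthases, carbonyl reductases among them, lie to the left of 0.

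Around these 8 genes, 134 other genes of the pathway were listed by function, of which 131 were on the array and 98 were tested. A linear trend was called for 54 of them, 29 rising and 25 falling, or 55.1%, against 47.7% of all tested probes. The lists were chosen with earlier results of these data known, and each gene was read by its brightest probe. The counts and p-values below therefore describe these genes, and nothing is read from the comparison of shares. With the set of 4 arrays as a term in limma's fit 0 of the 98 passed (24 had an unadjusted p under 0.05), and 145 of the 16110 probes did (2361 unadjusted), so that no trend named below was called within sets. All p-values below are limma's, adjusted by the Benjamini-Hochberg method over all tested probes.

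Upstream of the cyclooxygenases, 17 genes of phospholipases A2 and other lipases were tested, and 8 rose while 2 fell (median 0.23). Not every enzyme of this list, which includes phospholipases D, frees arachidonate directly. PLA2G4C, which encodes a calcium-independent cytosolic phospholipase A2, went from 8.80 at 0 h to 10.70 at 45 h (1.76 ± 0.11, adjusted p = 1.6e-10). The phospholipase D gene PLD2 rose by 1.05 ± 0.13 (adjusted p = 1.7e-06). MGLL, the monoacylglycerol lipase that frees arachidonate from an endocannabinoid, went from 11.16 to 9.59 (-1.59 ± 0.14, adjusted p = 2.5e-08). PLA2G3, a secreted enzyme detected on 5 of 16 arrays, went from 7.87 to 5.40 (-1.54 ± 0.27, adjusted p = 1.0e-04). Its value at 45 h lay below the lowest detected signal of that array (6.24), so it is not a measured level. Within sets PLD2 was at 0.54 and PLA2G3 at -2.49, and without background correction PLA2G3 was at -0.61. The other risers were PLA2G2A, PLA2G4B, PLA2G6, PLAAT3, PLD1 and ABHD12, with changes from 0.57 to 0.99. Of 13 genes of arachidonate supply and re-esterification 2 rose and 5 fell. The largest falls were in the desaturase genes that make arachidonate from linoleate, FADS1 (-2.09 ± 0.29, adjusted p = 6.3e-06) and FADS2 (-1.75 ± 0.32, adjusted p = 1.5e-04). The acyltransferase gene LPCAT2 fell too (-1.04 ± 0.20, adjusted p = 2.6e-04), while LPCAT3, another acyltransferase gene, rose by 0.97 ± 0.10 (adjusted p = 1.1e-07). LPCAT2 was at -0.50 without background correction and turned to 0.34 within sets.

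At the terminal step the other listed genes, of synthases and of reductases, had changes of opposite sign to PTGES. All 6 that were tested (of 11 listed) fell, with a median of -0.69, where 21.7% of all tested probes fell, and did so under each of 4 other background or scaling choices, while within sets of arrays PTGES2 and CBR1 were at 0.06 and 0.08, CBR3 at -0.33, AKR1C3 at -0.25 and AKR1B1 at -0.27. They included both other prostaglandin E synthase genes. PTGES3, whose product is also the HSP90 cochaperone p23, went from 12.97 at 0 h to 11.81 at 45 h (-0.89 ± 0.13, adjusted p = 1.9e-05). PTGES2 started at 13.33, lay between 12.67 and 12.89 from 15 to 42 h and was 13.41 at 45 h (-0.39 ± 0.10, adjusted p = 2.7e-03). The carbonyl reductase genes CBR3 (-1.08 ± 0.15, adjusted p = 5.2e-06) and CBR1 (-0.38 ± 0.10) and the aldo-keto reductase genes AKR1C3 (-0.75 ± 0.08) and AKR1B1 (-0.63 ± 0.16) made up the rest. The carbonyl reductases are not terminal synthases in the strict sense, and how far each acts on prostaglandins was not examined. PTGDS, HPGDS, PTGIS and TBXAS1 were not tested, being detected on fewer than 3 arrays.

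Of 5 other prostanoid receptor genes tested, 1 rose and 1 fell. PTGER1, the receptor EP1, which signals through calcium, went from 6.66 at 0 h to 7.61 at 45 h (1.43 ± 0.25, adjusted p = 9.9e-05). It was not detected on the 3 h array, with a value of 6.01, and was highest at 39 h (8.11). The linear change of PTGER1 turned to -0.23 ± 1.00 within sets and was 0.65 without background correction. PTGER3, the receptor EP3, which lowers cyclic AMP, went from 7.08 at 0 h to 5.78 at 45 h (-1.37 ± 0.27, adjusted p = 3.1e-04). It was detected on 11 of 16 arrays but not at 45 h, so that value is not a measured level. Its change was -3.07 within sets and -0.49 without background correction. Below EP2 and EP4, 3 of 15 genes of Gs and cyclic AMP signalling rose and 2 fell (33.3% in all). The adenylate cyclase genes ADCY3 (-2.10 ± 0.19, adjusted p = 2.2e-08) and ADCY9 (1.68 ± 0.13, adjusted p = 3.0e-09) moved in opposite directions. SIK1, a kinase gene that cyclic AMP induces, rose by 1.12 ± 0.20 (adjusted p = 1.2e-04). RAPGEF3, a cyclic AMP sensor detected on 3 arrays, the fewest that allowed a test, had a change of -1.27 ± 0.29 (adjusted p = 1.3e-03). RAPGEF3 was highest at 0 h (7.46), and its value at 45 h (5.27) lay below the lowest detected signal of that array (6.24). That value is not a measured level, and this call rests mostly on arrays without detection. Within sets ADCY3 was at -0.68, SIK1 at 0.58 and RAPGEF3 at -4.43, and without background correction SIK1 was at 0.62 and RAPGEF3 at -0.48.

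In transport and inactivation 3 of 7 genes rose and 0 fell, and with cyclic loess or no background correction 1 fell. The largest change past the threshold was in PTGR3, a prostaglandin reductase gene (0.59 ± 0.19, adjusted p = 0.012), which was not past the threshold with array weights (adjusted p = 0.069) and was at 0.22 within sets. SLCO2A1, the prostaglandin transporter that carries prostaglandin E2 into cells, is named after its values were seen. It went from 10.37 at 0 h through 9.79 and 7.91 to its lowest value of 6.60 at 9 h. It was back at 8.68 by 12 h and ended at 8.16, with its 0 h value above all later ones. Its linear change was -0.79 ± 0.46 (adjusted p = 0.17) and its time-dependent course had an adjusted p of 0.026. In the lipoxygenase arm, which uses the same substrate, 3 of 9 genes rose, among them LTA4H (0.83 ± 0.07, adjusted p = 2.9e-08), and 1 fell, ALOXE3 (-1.22 ± 0.24, adjusted p = 3.5e-04). ALOXE3 was detected on 11 of 16 arrays, turned to 0.59 within sets and was at -0.43 without background correction.

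Of 26 genes that regulate PTGS2 transcription or the decay of its mRNA, 9 rose and 8 fell. The PEA3 family genes ETV5, which went from 10.55 to 6.40 (-3.56 ± 0.42, adjusted p = 8.7e-07), and ETV4, from 9.06 to 5.68 (-3.33 ± 0.24, adjusted p = 1.7e-09), had the largest changes. ETV4 was detected on 12 of 16 arrays, and its value at 45 h lay below the lowest detected signal of that array, so it is not a measured level. Without background correction the changes were -2.12 for ETV5 and -1.60 for ETV4, and within sets that of ETV5 was -6.01. TSC22D3, a glucocorticoid-induced gene (1.38 ± 0.18, adjusted p = 2.5e-06), and DUSP1, a phosphatase gene that restrains MAP kinases (1.17 ± 0.10, adjusted p = 7.8e-09), rose, with 2.40 and 0.78 within sets.

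**Figure D4:**
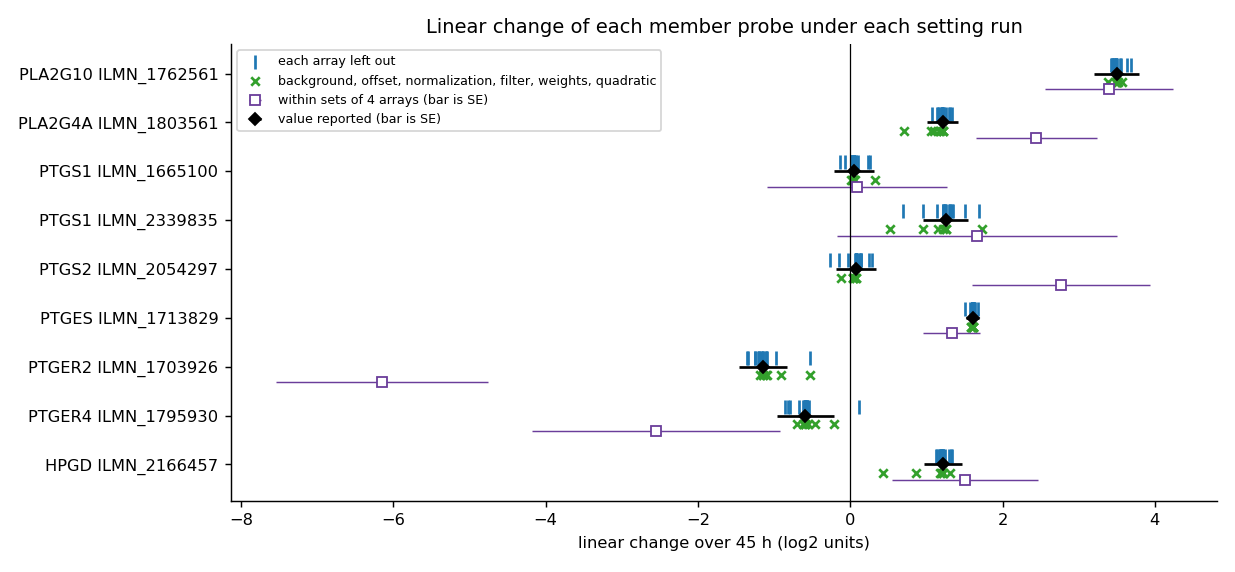
Linear change over 45 h (log2 units) of each of the 9 probes as reported (black diamond, bar is SE), with each array left out (blue ticks), under other processing (green crosses) and within sets of 4 arrays (open squares, bar is SE). PLA2G10 and PTGES stay within a narrow band, while leaving out 1 array moves PTGER4 to 0.11 and the within-set value of PTGER2 is -6.15.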

How the data were processed

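Total RNA of 16 parallel SUM225 cultures, 1 per time point as labelled, was hybridised to Illumina bead arrays. The study's methods name a Ref8 array for related courses, and no version is given in the labels. The deposited table holds a linear signal intensity per probe and array, to which the authors applied neither background subtraction nor normalization, and a deposited detection p-value. Its columns of per-sample values were all used. The 8 genes and the lists were chosen with earlier results of these data known.

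Signals were background-corrected by normexp using detection p-values (offset 16), quantile-normalized and log2-transformed (the steps of neqc, limma 3.58.1 in R 4.3.3). Probes detected (p under 0.05) on at least 3 arrays were fitted with a cubic in hours (lmFit, then eBayes with a trend on intensity), with two-sided tests adjusted by Benjamini-Hochberg over 16110 probes. Each gene of a list was represented by its brightest probe. Named were the 8 genes, up to 4 genes per list past the threshold with a change of at least 1 log2 unit (otherwise the largest), and the 3 genes most like each of the 8. Other list genes and SLCO2A1 were named after their values were seen. No p is given for the 8 genes. Where a level was not detected, the fold is a lower bound against the lowest signal detected on that array or the probe's own, whichever is higher. Of the symbols, 91% matched RefSeq symbols or synonyms of GRCh38.p14, and others were kept as written. The number of arrays, 16, limits the precision.

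Results were recomputed with uncorrected signals (floor 16), a larger offset (50), scaling by medians or by cyclic loess, all probes, only probes detected on all 16 arrays, sets of 4 consecutive arrays as a factor (no label names them as a batch), array weights, a quadratic course, a natural spline with 4 degrees of freedom, any probe of a gene and each array left out. Figures used matplotlib 3.10.9.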

Additional observations from a re-analysis of the deposited data

How the results depend on the processing

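No paired analysis was possible because there was 1 array for each time. Of 220 recomputed linear changes of the 9 probes, 204 moved by less than the probe's residual SD and 16 by more, and none of the 6 called directions turned. Without background correction the values were 0.70 for PLA2G4A, 0.52 for PTGS1 (ILMN_2339835), -0.53 for PTGER2 and 0.43 for HPGD, and an offset of 50 gave 0.86 for HPGD. Within sets of arrays they were 2.44 for PLA2G4A, 2.77 for PTGS2, 1.33 for PTGES, -6.15 for PTGER2 and -2.55 for PTGER4, and array weights gave 1.73 for PTGS1 (ILMN_2339835). With each array left out, PTGS1 (ILMN_2339835) ranged from 0.69 to 1.69, PTGER2 from -1.35 to -0.52, PTGER4 from -0.86 to 0.11 and PTGS2 from -0.27 to 0.29, the 0 h array setting the nearer end to 0 in the first case and the upper end in the next 2, and the 45 h and 6 h arrays the ends in the last. Trends called within sets numbered 0 of the pathway genes and 145 of all probes. There PTGER1 was -0.23, ALOXE3 0.59 and LPCAT2 0.34, each turned in sign. Elsewhere 53 to 58 pathway genes had a trend with any array left out (46 where detection on all 16 arrays was asked) and 50 to 63 a time-dependent course over the alternatives. Of 491 recomputed values of the named pathway genes, 470 kept direction and call, 18 lost the call and 3 turned. The cause of these shifts was not tested. Values near the detection limit (PTGS2, HPGD, PTGER2 after 6 h the dimmer PTGS1 probe and pathway genes such as PLA2G3, PTGER3, ALOXE3, RAPGEF3 and ETV4) depend on the correction for background.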

Other observations

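The 9 h array was higher than both its neighbours for 4 of the 9 probes, as were the arrays at 18, 27 and 39 h, and the 30 h array for 5. The share of all tested probes above both neighbours is not given, so nothing is read from these counts. The 9 h array lay above the mean of its neighbours at 6 and 12 h by 0.72 for PLA2G10, 0.76 for PLA2G4A, 1.21 for PTGS1 (ILMN_2339835) and 0.87 for PTGS1 (ILMN_1665100), while the difference was -0.67 for PTGER2, and PTGES, PTGER4 and HPGD were within 0.1 of their neighbours. Over all 16110 tested probes the median distance of an array from the mean of its neighbours was 0.165 log2 units at 9 h, the largest of the 14 inner arrays, against 0.11 to 0.159 for the others, and 9.94% of probes were at least 0.5 away.

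Deposited signal was highest at 27 h for 6 of the 9 probes, the array with the highest median signal of all, and after normalization none of the 9 was highest there. The matching shares of all probes are not given, so nothing is read from these counts either. PTGER2 and PTGER4 were highest at 0 h on both scales.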
